A study of Mus musculus with 11 samples.

Results

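The data are liver RNA levels of the nuclear genes for respiratory complexes II, III, IV and V in conplastic mice. A gene was taken as a member when it was annotated as protein-coding and its symbol began with *Sdha*, *Sdhb*, *Sdhc*, *Sdhd*, Uqc, Atp5, or Cox followed by a digit, and *Usmg5* was added. This gave 65 of the 32035 genes measured, with 254 transcripts, of which 8 belong to complex II, 11 to complex III, 27 to complex IV and 19 to complex V. The rule used no measured value. Of the 65 members, 58 passed the filter on low counts and were tested, and 7 did not pass.

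RNA-seq was performed on liver RNA of 11 females, with a separate library for each mouse. The 7 B6-mtALR mice (C57BL/6J-mtALR/J) carry the mtDNA of the ALR strain with the variant m.4738C>A in *mt-Nd2*, and the 4 B6-mtBPL mice (C57BL/6J-mtBPL/J) carry the mtDNA of the BPL strain with the variant m.11902T>C in *mt-Nd5*. Both strains carry these mtDNAs on the nuclear background of C57BL/6J, which is what conplastic means, and remaining nuclear differences between mice were not analysed here. The B6-mtALR mice numbered 4 to 7 were 3 months old and those numbered 1 to 3 were 5 months old. Of B6-mtBPL, mice 1 and 2 were 3 months old, and mice 3 and 4 were 4 months old. *mt-Nd2* and *mt-Nd5* encode subunits of complex I, and mice with the mtDNA of C57BL/6J itself were not analysed here. No mouse of 5 months carries the BPL mtDNA and no mouse of 4 months carries the ALR mtDNA, so the strains can be set against each other at 3 months of age.

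Complex II (succinate dehydrogenase) oxidises succinate and feeds electrons into ubiquinone, complex III (the cytochrome bc1 complex) passes them to cytochrome c, complex IV (cytochrome c oxidase) passes them to oxygen, and complex V (ATP synthase) makes ATP from the proton gradient. Complex II is wholly nuclear-encoded, whereas complexes III to V each combine nuclear subunits with subunits encoded by mtDNA. Each complex needs assembly factors, which in complexes II to IV include those that insert flavin, iron-sulfur clusters, hemes or copper. Hepatocytes are rich in mitochondria, and several subunits of complex IV exist as isoforms, one used in liver and most tissues and another in tissues such as heart, skeletal muscle, lung or testis.

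Total estimated counts ranged from 18145815 to 25074045 per mouse, and the members took 0.774 to 0.978% of them. The summed TPM (a level scaled for transcript length and library size) of 7 hepatocyte markers lay between 82200 and 97700 in all 11 mice, and 1 of the 7 was called, that is, had an adjusted p-value under 0.05 between the strains by edgeR. The 5 muscle markers summed to 0.165 to 0.981 TPM, with *Acta1* and *Myh6* at 0 in every mouse. The 4 pancreas markers summed to 0.627 to 2.49 TPM, with *Cpa1*, *Pnlip* and *Ctrb1* at 0, and the 3 adipocyte markers to 0.0225 to 0.262 TPM, with *Cfd* at 0. The summed TPM of 5 endothelial markers was 123 to 128 in the B6-mtALR mice of 3 months and 144 to 169 in the B6-mtBPL mice, without overlap, and 2 of the 5 were called between the strains. The B6-mtALR mice of 5 months, at 141 to 169 TPM, overlapped with B6-mtBPL. The 5 stellate cell markers gave 168 to 203 and 200 to 233 TPM in the same groups, with 1 of 5 called, and 208 to 215 TPM in B6-mtALR mice of 5 months. Sums of Kupffer cell, cholangiocyte and erythroid markers overlapped between the B6-mtALR mice of 3 months and B6-mtBPL, with 0 called. Over all genes, 0.934% were called higher and 1.44% lower in B6-mtALR mice. In bulk liver, fewer cells of a type and less RNA per cell cannot be told apart, and the part of these markers in the results on the members was not tested.

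Transcripts of the members are short. Their median length was 720 bases, against 2388 bases for all 13380 genes tested, and 52 of the 58 members tested lay below the latter value. The libraries differed in how relative expression followed transcript length. The slope of relative log2 expression on log10 length over all genes was 0.40 and 0.49 in the B6-mtBPL mice of 3 months and 0.08 and 0.21 in those of 4 months. In the B6-mtALR mice of 3 months it was -0.08, -0.42, 0.15 and -0.20, and in those of 5 months it was -0.40, -0.40 and 0.16. The difference between the strains is therefore given both as fitted and after a correction of each library for transcript length, and the part of the length trend in the results was not tested.

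Promoter sequences of 51 of the 65 members were found in RefSeq (build GRCm38.p6). Windows of 300 bases, from 250 bases before to 50 bases after the start, were searched on both strands for the letters of sites known from nuclear respiratory genes. The NRF1 core CGCATGCG stood in 6 of 48 promoters of members tested (12.5%) and in 3.78% of those of 10346 genes tested. The GABPA letters CCGGAAGT stood in 8 (16.7%, against 8.15%), the YY1 letters AAGATGGC in 5 (10.4%, against 4.53%) and the ESRRA letters CAAGGTCA in 4 (8.33%, against 0.928%). These are matches of letters and not measured sites, and the motifs do not overlap each other in the stretches shown. The 4 stretches below each give the 150 bases before the start in lower case, with the matched letters in capitals on the strand of the gene. *Usmg5* (chr19:47090648-47090797, minus strand) is shown as the member with the largest difference between the strains, and none of the searched letters are in its window. *Cox16* (chr12:81485138-81485287, minus strand) is shown as a called member with the GABPA letters at position -16. *Atp5g3* (chr2:73911327-73911476, minus strand) is shown for the ESRRA letters at position -52, and *Atp5k* (chr5:108434400-108434549, minus strand) for the NRF1 core at position -49, where positions give the first base of the match counted from the start.
Usmg5: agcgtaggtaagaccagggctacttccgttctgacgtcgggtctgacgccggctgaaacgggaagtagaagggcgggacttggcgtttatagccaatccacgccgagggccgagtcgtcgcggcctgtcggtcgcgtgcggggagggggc
Cox16: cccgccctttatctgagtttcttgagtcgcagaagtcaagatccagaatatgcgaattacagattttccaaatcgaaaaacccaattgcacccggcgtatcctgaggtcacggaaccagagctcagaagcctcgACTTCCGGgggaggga
Atp5g3: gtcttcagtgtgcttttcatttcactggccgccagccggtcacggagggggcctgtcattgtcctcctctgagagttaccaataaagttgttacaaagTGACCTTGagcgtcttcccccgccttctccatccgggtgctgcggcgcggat
Atp5k: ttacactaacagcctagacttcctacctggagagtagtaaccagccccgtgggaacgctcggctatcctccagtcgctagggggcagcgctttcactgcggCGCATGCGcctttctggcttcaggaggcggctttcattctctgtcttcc

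In the livers of B6-mtALR mice, 9 nuclear complex II to V genes were higher than in B6-mtBPL mice and none was lower. These were *Uqcrb* of complex III, *Cox6c*, *Cox7a2*, *Cox7b*, *Cox7c* and *Cox16* of complex IV, and *Usmg5*, *Atp5f1* and *Atp5mpl* of complex V, with log2 fold changes from 0.50 to 0.71. The 4 B6-mtALR mice of 3 months were compared with the B6-mtBPL mice by the quasi-likelihood test of edgeR with age in the model. The strain term of this model sets them against the 2 B6-mtBPL mice of 3 months, while those of 4 months enter the variance estimate. The 9 genes are among 58 members tested. Over all genes, 0.934% were called higher and 1.44% lower in B6-mtALR mice at an adjusted p-value under 0.05. A further 28 members had an unadjusted p under 0.05 only, which makes 37 in all, each of them higher in B6-mtALR mice. Over all genes 21.3% had such a p, and 10.2% had it and were higher.

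The log2 fold change was above 0 in 57 of the 58 members, against 49.6% of all genes, and the exception was *Sdha* at -0.02. The median of the members was 0.36 on the log2 scale, against 0.00 for all genes. In 18 members every B6-mtALR mouse of 3 months lay above every B6-mtBPL mouse, a pattern found in 5.67% of all genes. They all lay below in 0 members, against 858 of the 13380 genes tested. In 10 members all 7 B6-mtALR mice lay above every B6-mtBPL mouse, against 1.4% of all genes. After the correction for transcript length, the median of the members was 0.07, and the log2 fold change was above 0 in 40 of 58. Then 0 members were called by edgeR, 11 had an unadjusted p under 0.05, all of them higher in B6-mtALR mice, and the smallest adjusted p-value of a member was 0.134, while 11 genes were called over the whole table in place of 318. Of all 13380 genes, 2004 then had an unadjusted p under 0.05, and 7.85% had it and were higher. With the 3 B6-mtALR mice of 5 months in the fit, 0 members were called by edgeR and 35 had an unadjusted p under 0.05, all of them higher in B6-mtALR mice (9.04% of all genes), with a smallest adjusted p-value of 0.0634.

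The count of called members rested on single mice. Without replicate 4 or replicate 5 of B6-mtALR, or without replicate 1 or replicate 2 of B6-mtBPL, edgeR called 0 members, with 29, 27, 21 and 19 higher at an unadjusted p under 0.05, against 8.17, 9.24, 6.30 and 4.28% of all genes. Without replicate 3 or replicate 4 of B6-mtBPL it called 2 each, without replicate 7 of B6-mtALR 6 and without replicate 6 of B6-mtALR 17. The median of the members lay between 0.30 and 0.40 in these 8 fits. With all 8 mice, limma-trend called 9 members higher, against 0.919% of all genes, and DESeq2 called 21 higher, against 4.74% of the genes with an adjusted p-value. None was called lower by either. Leaving out the age term gave 3 called members, *Usmg5*, *Sdhaf1* and *Atp5l*, with a median of 0.25 over the members. Of these 3, only *Usmg5* is among the 9.

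**Figure D1:**
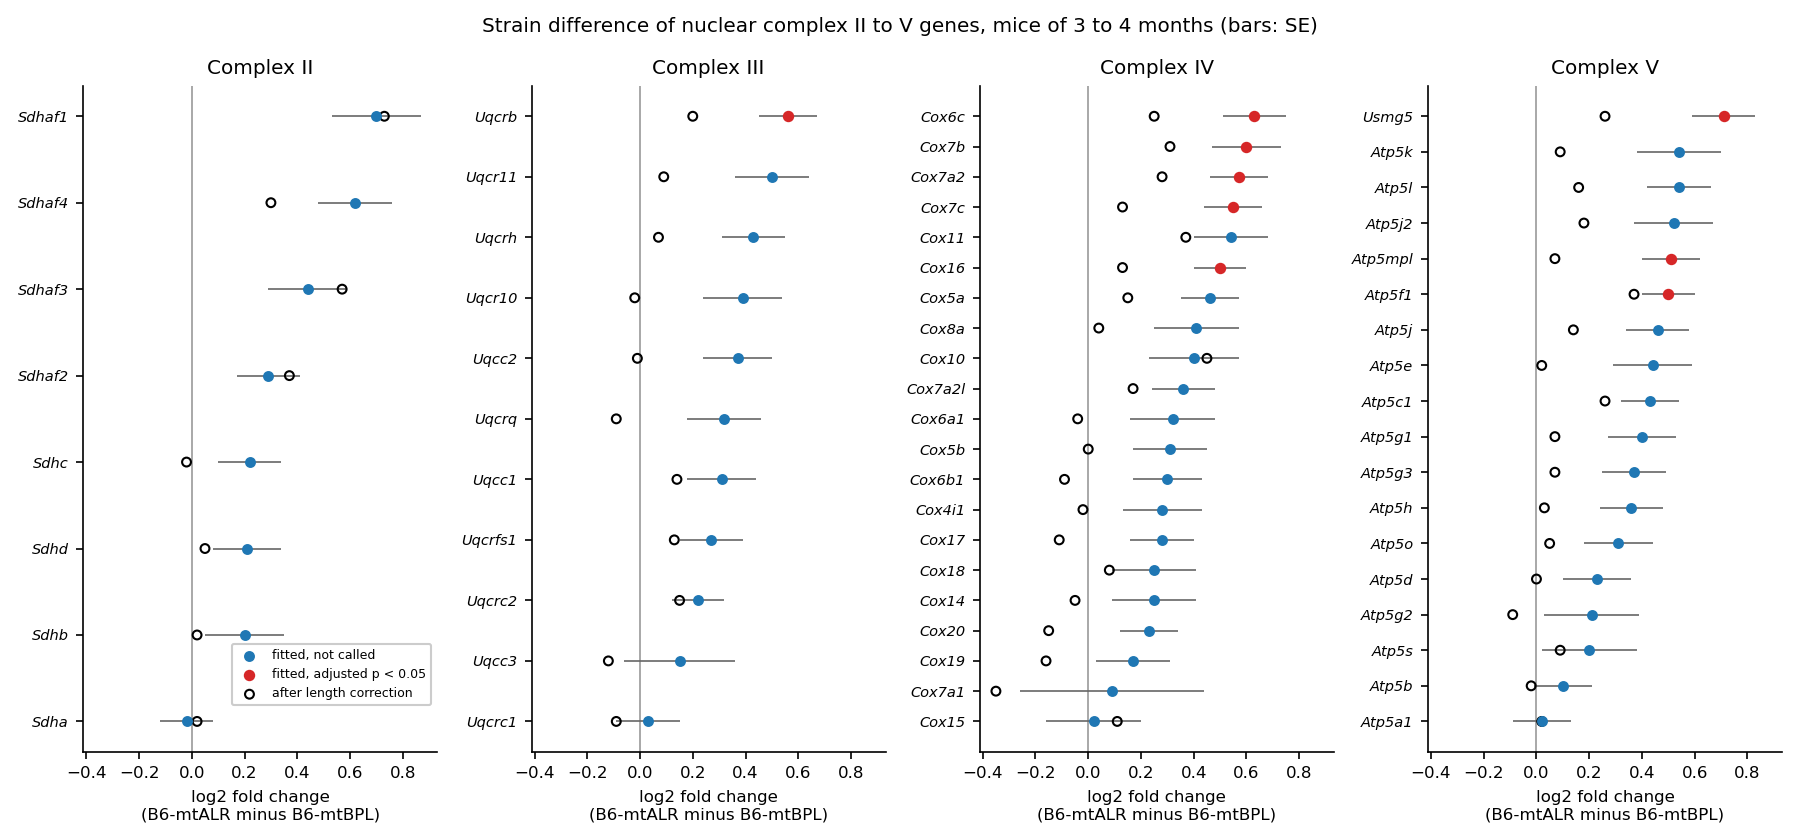
Log2 fold change (B6-mtALR minus B6-mtBPL, horizontal axis) of the 58 members tested, 1 panel per complex; filled points are the fitted values with bars of 1 SE (red, adjusted p under 0.05), and open circles are the values after the correction for transcript length. The 9 red points lie between 0.50 and 0.71, most open circles lie nearer to 0, and the open circles of Sdhaf1, Sdhaf2 and Sdhaf3 of complex II lie above their fitted values.

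In complex II edgeR called 0 of 8 genes, 4 had an unadjusted p under 0.05, DESeq2 called 2 and limma-trend 0. Its subunits and its assembly factors are described separately, and no difference between groups of members was tested here or in the other complexes. The subunits were *Sdha*, the flavoprotein that binds succinate, *Sdhb*, the iron-sulfur subunit, and the membrane anchors *Sdhc* and *Sdhd*. *Sdha* was at 526, 492, 474 and 479 CPM (the count scaled to a common library size, adjusted by TMM) in the B6-mtALR mice of 3 months, at 473, 428 and 534 CPM in those of 5 months, at 498 and 499 CPM in the B6-mtBPL mice of 3 months and at 561 and 558 CPM in those of 4 months. These ranges overlap at 3 months, and the log2 fold change of -0.02 (SE 0.10) was smaller than its error. *Sdhb*, *Sdhc* and *Sdhd* gave log2 fold changes of 0.20, 0.22 and 0.21 with adjusted p-values of 0.449, 0.328 and 0.372, and the median of the 4 subunits was 0.02 after the length correction.

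All 4 assembly factors of complex II were higher in every B6-mtALR mouse of 3 months than in every B6-mtBPL mouse, although 0 of them passed the adjusted threshold of edgeR and DESeq2 called *Sdhaf1* and *Sdhaf4*. *Sdhaf1* helps to insert iron-sulfur clusters into *Sdhb*, *Sdhaf2* attaches the flavin to *Sdha*, *Sdhaf3* takes part in the maturation of *Sdhb*, and *Sdhaf4* binds *Sdha* before assembly. *Sdhaf1* was at 10.7, 14.1, 11.9 and 10.2 CPM in the B6-mtALR mice of 3 months and at 7.16, 8.91 and 7.67 CPM in those of 5 months, against 7.62 and 6.73 CPM in the B6-mtBPL mice of 3 months and 7.00 and 5.94 CPM in those of 4 months. The B6-mtALR mice of 3 months stand apart from all other mice, and the B6-mtALR mice of 5 months overlap with B6-mtBPL. The log2 fold change was 0.70 (SE 0.17, adjusted p = 0.065).

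*Sdhaf4* was at 13.2, 14.3, 11.4 and 13.2 CPM in B6-mtALR at 3 months, at 12.6, 11.5 and 11.1 CPM at 5 months, and at 7.74, 9.21, 9.39 and 10.2 CPM in B6-mtBPL replicates 1 to 4. All 7 B6-mtALR mice lay above all 4 B6-mtBPL mice, with a log2 fold change of 0.62 (SE 0.14, adjusted p = 0.0548), the value just outside the threshold. *Sdhaf2* and *Sdhaf3* gave 0.29 and 0.44 with adjusted p-values of 0.19 and 0.128. All 4 factors had an unadjusted p under 0.05 both before and after the length correction. Transcripts of *Sdhaf1*, *Sdhaf2* and *Sdhaf3* are 2490, 3096 and 3652 bases long, and their log2 fold changes after the correction were 0.73, 0.37 and 0.57, while that of *Sdhaf4*, at 679 bases, was 0.30. Genes that share sequence can share reads, and stretches of 31 bases (words) were therefore compared between genes. Of the words of the main *Sdhaf1* transcript, 69.2% also occur in *E130208F15Rik*, which took 0.0878% of the counts of both genes.

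**Figure D2:**
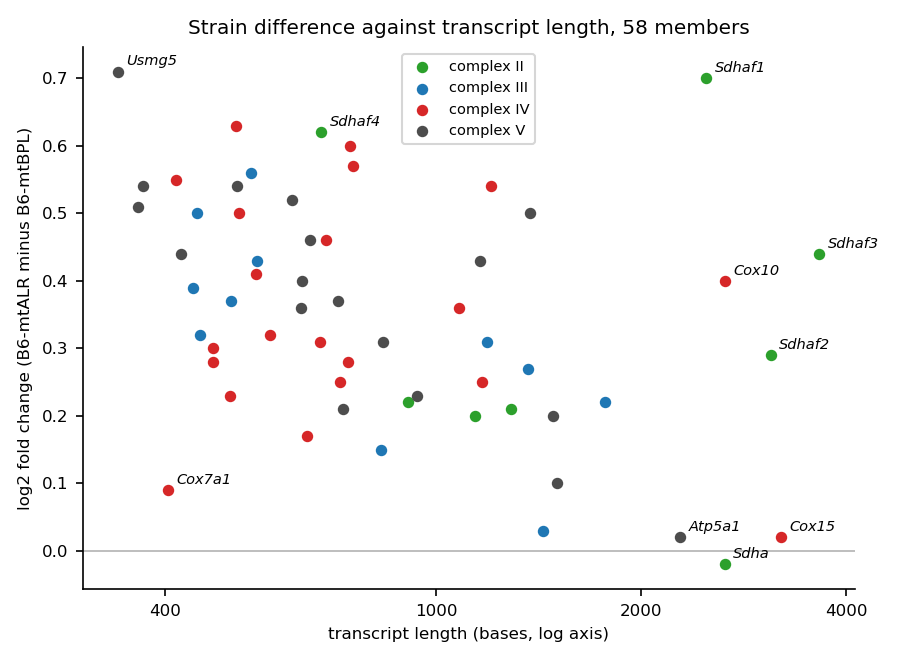
Log2 fold change (B6-mtALR minus B6-mtBPL) of the 58 members tested against the length of their transcripts in bases on a log axis, coloured by complex. Short members reach 0.71, Sdha, Atp5a1 and Cox15 lie near 0 at 2283 bases or more, and Sdhaf1, Sdhaf2, Sdhaf3 and Cox10 are long members between 0.29 and 0.70.

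Across the 58 members, the Spearman rho of the fitted log2 fold change with transcript length was -0.41, against -0.47 across all genes, and it was 0.31 for the members after the correction. These are descriptions across genes of the same 8 libraries. The 52 members shorter than the median of all genes moved from a median of 0.36 before the correction to 0.07 after it (log2 scale). The 6 longer members (*Sdha*, *Sdhaf1*, *Sdhaf2*, *Sdhaf3*, *Cox10* and *Cox15*) had medians of 0.34 and 0.41.

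In complex III, the median log2 fold change was 0.43 for the 5 small subunits and 0.22 for the core and iron-sulfur proteins. *Uqcrb*, a small subunit near the ubiquinone site, was the called gene. Its level was 134, 128, 114 and 122 CPM in the B6-mtALR mice of 3 months, 122, 127 and 120 CPM in those of 5 months, 87.5 and 80.7 CPM in the B6-mtBPL mice of 3 months, and 104 and 102 CPM in those of 4 months. All 7 B6-mtALR mice lay above all 4 B6-mtBPL mice, and the log2 fold change was 0.56 (SE 0.11, edgeR adjusted p = 0.0378). The gene lies at chr13:66900617-66905378 on the minus strand (GRCm38).

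The other small subunits gave log2 fold changes of 0.50 for *Uqcr11*, 0.43 for *Uqcrh* (the hinge protein), 0.39 for *Uqcr10* and 0.32 for *Uqcrq*, with edgeR adjusted p-values from 0.0877 to 0.224. *Uqcrh* shared the separation of all 7 B6-mtALR mice from B6-mtBPL. *Uqcrc1*, a core protein, was at 106, 122, 93.3 and 110 CPM in B6-mtALR mice of 3 months and at 103, 107, 112 and 105 CPM in B6-mtBPL mice, with full overlap and a log2 fold change of 0.03 (SE 0.12). The other core protein, *Uqcrc2*, and the Rieske iron-sulfur protein *Uqcrfs1* gave 0.22 and 0.27, and the assembly factors *Uqcc1*, *Uqcc2* and *Uqcc3*, which serve the making of cytochrome b, gave 0.31, 0.37 and 0.15, none called by edgeR, DESeq2 or limma-trend. After the length correction the medians were 0.13 for the core, 0.07 for the small subunits and -0.01 for the assembly factors.

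Complex IV held 5 of the called genes. Its 12 subunits tested gave a median of 0.38 on the log2 scale and its 9 assembly factors gave 0.25, and both medians were 0.08 after the length correction. *Cox6c* was at 212, 211, 173 and 194 CPM in B6-mtALR at 3 months, at 184, 207 and 152 CPM at 5 months, and at 132, 123, 152 and 160 CPM in B6-mtBPL replicates 1 to 4. The groups were apart at 3 to 4 months, whereas replicate 3 of B6-mtALR, of 5 months, lay within the B6-mtBPL range. The log2 fold change was 0.63 (SE 0.12, edgeR adjusted p = 0.0336). The gene lies at chr15:35925886-35938246 on the minus strand.

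*Cox7b* (chrX:106015700-106022450, plus strand) was at 172, 179, 139 and 147 CPM in B6-mtALR at 3 months, at 133, 131 and 130 CPM at 5 months, and at 105, 104, 130 and 115 CPM in B6-mtBPL. Its difference was 0.60 on the log2 scale (SE 0.13, edgeR adjusted p = 0.0492), the value just inside the threshold, and the lowest of the 7 B6-mtALR mice lay barely above replicate 3 of B6-mtBPL. *Cox7a2* (chr9:79755361-79759878, minus strand), the isoform used in liver, was at 96.5, 108, 92.6 and 98.2 CPM in B6-mtALR at 3 months, at 90.2, 90.6 and 77.1 CPM at 5 months, and at 70.3, 62.7, 80.3 and 77.9 CPM in B6-mtBPL. The 3-month mice did not overlap with B6-mtBPL, the 5-month mice did, and the log2 fold change was 0.57 (SE 0.11, edgeR adjusted p = 0.0385).

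*Cox7c* (chr13:86044816-86046904, minus strand), the complex IV member of highest TPM, was at 161, 172, 144 and 166 CPM in B6-mtALR at 3 months, at 161, 172 and 136 CPM at 5 months, and at 111, 108, 132 and 137 CPM in B6-mtBPL. Replicate 3 of B6-mtALR lay just within the B6-mtBPL range and the other B6-mtALR mice lay above it. The log2 fold change was 0.55 (SE 0.11, edgeR adjusted p = 0.0383). Of its 31-base words, 57.2% also occur in other genes, 41.4% in the pseudogene *Gm12338*, which received 0 counts. *Cox16* (chr12:81359026-81485127, minus strand), a factor for the maturation of the mtDNA-encoded subunit 2, was at 27.7, 26.7, 25.6 and 25.7 CPM in B6-mtALR at 3 months, at 29.9, 28.1 and 24.7 CPM at 5 months, and at 18.4, 18.9, 21.9 and 22.0 CPM in B6-mtBPL. All 7 B6-mtALR mice lay above B6-mtBPL, with a log2 fold change of 0.50 (SE 0.10, edgeR adjusted p = 0.0428). *Cox16* shares 39.7% of its 31-base words with the overlapping gene *Gm20498*, which took 29.5% of the counts of both, so its level is uncertain.

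**Figure D3:**
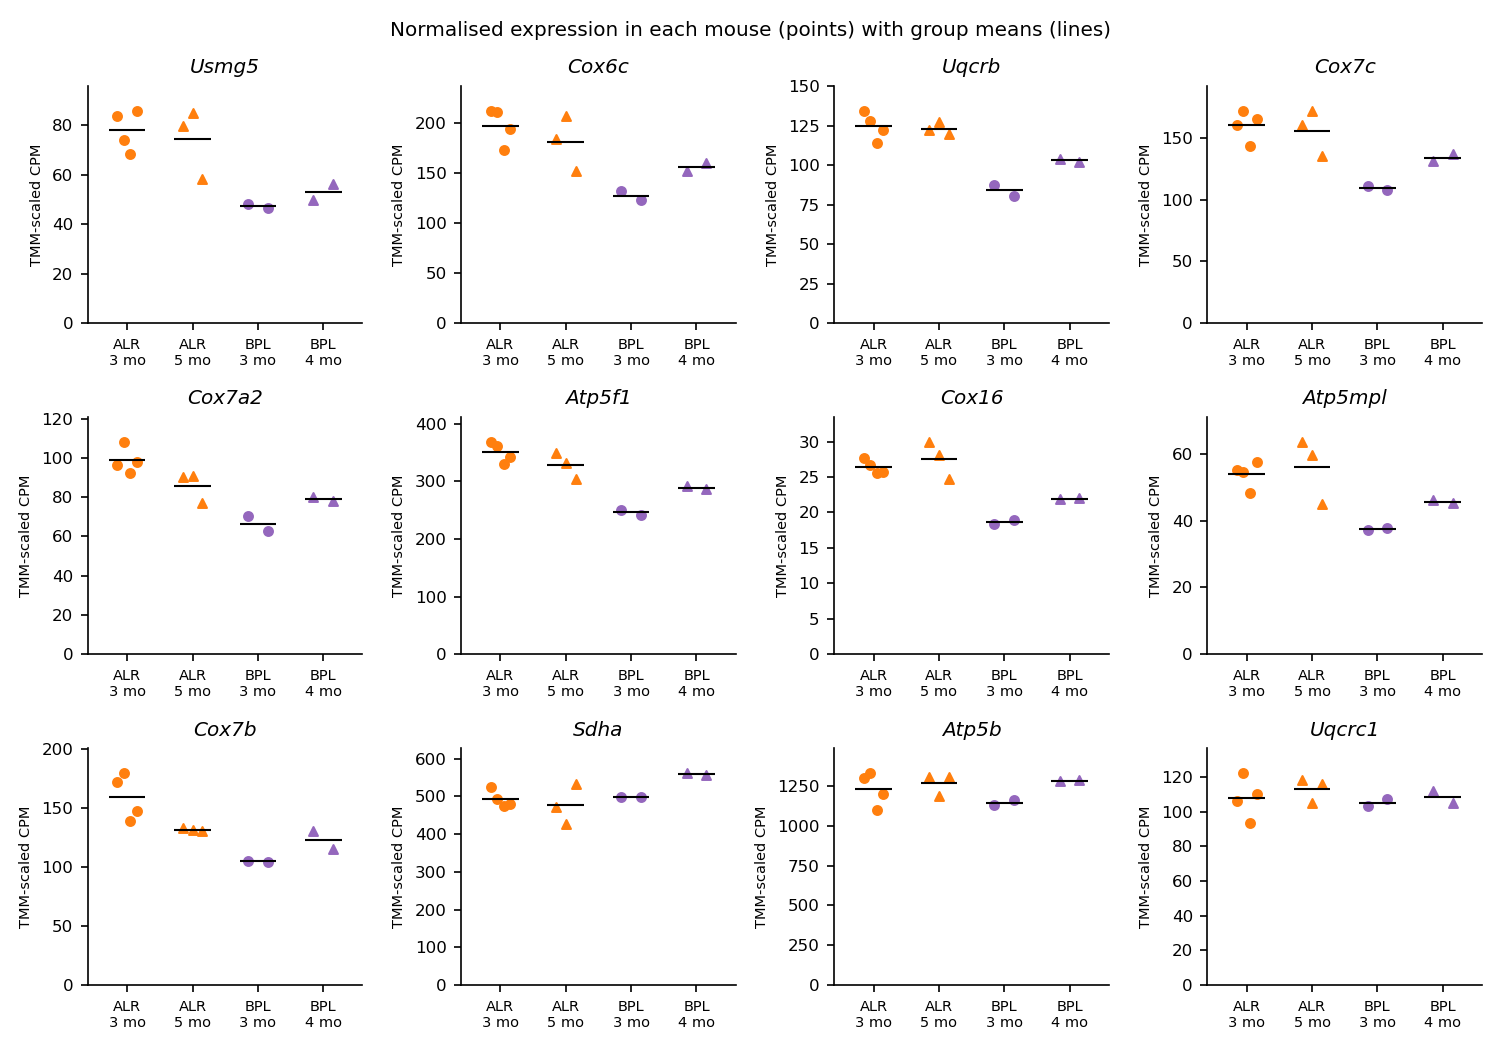
TMM-scaled CPM (vertical axes, from 0) of the 9 called members and of Sdha, Atp5b and Uqcrc1 in each mouse, by strain (orange B6-mtALR, purple B6-mtBPL) and age in months; circles are mice of 3 months, triangles older mice, and lines group means. For the called genes the B6-mtBPL mice of 3 months are lowest and those of 4 months lie between them and the B6-mtALR mice of 3 months, while the large subunits overlap.

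Among the other complex IV members, *Cox11* (copper delivery to subunit 1) gave 0.54 and *Cox5a* gave 0.46, with edgeR adjusted p-values of 0.0791 and 0.065, and for both all 7 B6-mtALR mice lay above B6-mtBPL. *Cox11* shares 52.8% of its 31-base words with *Tom1l1*, which overlaps it on the opposite strand and took 75.0% of the counts of both, so its level is uncertain. The heme A factors *Cox10* and *Cox15* gave 0.40 and 0.02. *Cox15* was at 33.1, 32.0, 34.2 and 21.8 CPM in B6-mtALR at 3 months and at 30.4, 29.3, 25.5 and 29.7 CPM in B6-mtBPL, with replicate 7 of B6-mtALR below the B6-mtBPL range. *Cox4i1*, *Cox6a1* and *Cox8a*, the liver forms of subunits that have tissue isoforms, gave 0.28, 0.32 and 0.41 with edgeR adjusted p-values from 0.174 to 0.312.

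Isoforms known from other tissues were close to or at 0. *Cox6a2* and *Cox8b* are the forms of heart and skeletal muscle, and *Cox4i2* is known from lung. *Cox4i2* reached at most 4 counts in any mouse, *Cox6a2* at most 2 and *Cox8b* at most 1, whereas *Cox4i1*, *Cox6a1* and *Cox8a* had 5939, 3653 and 3068 counts or more in every mouse. The testis forms *Cox6b2*, *Cox7b2* and *Cox8c* reached at most 9, 0 and 0 counts. With the second annotated gene named *Atp5o* (at most 10 counts, in 3 of 11 mice), these are the 7 members that were not tested. *Cox7b2* and *Cox8c* were at 0 in all 11 mice, which says only that they were not detectable at this depth.

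In the Cox7a family the muscle form was present. Of the summed TPM of the family, *Cox7a2* held 57.9%, *Cox7a2l* (which takes part in joining complexes III and IV) 38.4% and *Cox7a1* 3.66% as the mean of 11 mice. *Cox7a2* held 61.2% ± 1.49 (SD, n = 4) in B6-mtALR mice of 3 months, 54.0% ± 0.957 (SD, n = 3) in those of 5 months and 57.6% ± 1.91 (SD, n = 4) in B6-mtBPL mice. The ranges were 59.6 to 62.8%, 53.2 to 55.1% and 55.2 to 59.2%, so the 3 sets of mice did not overlap, although 55.1 and 55.2% nearly touch. How often such a separation of shares arises over other genes was not counted. No test was made of these shares, since they were singled out after the values were seen. *Cox7a1* itself, at 26 to 64 counts per mouse, gave a log2 fold change of 0.09 between the strains (SE 0.35), and -0.35 after the length correction.

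In complex V, the median log2 fold change was 0.51 for the stalk and membrane members and 0.23 for the F1 head. The former group holds all members outside the F1 head and the c ring, including *Atp5s*, which RefSeq names *Dmac2l*. *Usmg5* (chr19:47083464-47090647, minus strand), a small membrane subunit tied to the pairing of ATP synthases, had the largest difference of all members. It was at 83.7, 73.8, 68.4 and 85.5 CPM in B6-mtALR at 3 months, at 79.6, 84.7 and 58.2 CPM at 5 months, and at 47.9, 46.6, 49.6 and 56.1 CPM in B6-mtBPL replicates 1 to 4. All 7 B6-mtALR mice lay above all B6-mtBPL mice, and replicate 3 of B6-mtALR came closest to them. The log2 fold change was 0.71 (SE 0.12, edgeR adjusted p = 0.0302), and 0.26 after the length correction. The pseudogene *Gm14539* shares 43.4% of its 31-base words and received 0 counts.

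*Atp5f1* (chr3:105942698-105960099, minus strand), subunit b of the peripheral stalk, was at 368, 362, 331 and 343 CPM in B6-mtALR at 3 months, at 350, 333 and 304 CPM at 5 months, and at 251, 242, 292 and 287 CPM in B6-mtBPL. All 7 B6-mtALR mice lay above B6-mtBPL, with a log2 fold change of 0.50 (SE 0.10, edgeR adjusted p = 0.0409) and of 0.37 after the length correction, the largest corrected value among the 9 called genes. *Atp5mpl* (chr12:111961375-111966977, minus strand), a small membrane subunit, was at 55.3, 54.7, 48.3 and 57.7 CPM in B6-mtALR at 3 months, at 63.5, 59.6 and 45.1 CPM at 5 months, and at 37.3, 37.9, 46.1 and 45.2 CPM in B6-mtBPL. Its log2 fold change was 0.51 (SE 0.11, edgeR adjusted p = 0.0437), and replicate 3 of B6-mtALR lay within the B6-mtBPL range.

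The 10 stalk and membrane members tested included 3 that were called by edgeR and 7 by DESeq2, 9 had an unadjusted p under 0.05 in edgeR, and all 10 stayed above 0 after the length correction with a median of 0.12. *Atp5l* (subunit g) gave 0.54 and *Atp5k* (subunit e) 0.54, with edgeR adjusted p-values of 0.0564 and 0.0917, the former with 8.37% of the counts of both genes assigned to the pseudogene *Gm10221*, which holds 54.3% of its 31-base words.

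In the F1 head edgeR called 0 of 5 genes, 2 had an unadjusted p under 0.05, DESeq2 called 1 and limma-trend 0. *Atp5b*, the catalytic beta subunit and the most abundant member at 1240 TPM, was at 1300, 1330, 1100 and 1200 CPM in B6-mtALR at 3 months and at 1130, 1160, 1280 and 1290 CPM in B6-mtBPL. The groups overlapped, and the log2 fold change was 0.10 (SE 0.11). *Atp5a1*, the alpha subunit, gave 0.02 (SE 0.11), *Atp5c1*, the gamma subunit of the central shaft, 0.43 (edgeR adjusted p = 0.0647), *Atp5d* 0.23 and *Atp5e* 0.44. The 3 genes for the identical c subunit of the rotor ring held 60.7% (*Atp5g3*), 34.8% (*Atp5g1*) and 4.53% (*Atp5g2*) of their summed TPM and gave log2 fold changes of 0.37, 0.40 and 0.21. Of these 3 edgeR called 0 (2 at an unadjusted p under 0.05), limma-trend 0 and DESeq2 1, *Atp5g3*. *Atp5g2* is uncertain, since 87.7% of its 31-base words occur in the transcribed pseudogene *Gm10175*, which took 72.5% of the counts of both.

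On the TPM scale, which allows levels of different genes to be compared, the most abundant member of each complex over the 11 mice was *Sdha* at 270 TPM, *Uqcrq* at 995 TPM, *Cox7c* at 875 TPM and *Atp5b* at 1240 TPM. The subunits of complex II lay close together, with *Sdhb* at 260, *Sdhc* at 245 and *Sdhd* at 238 TPM, whereas their assembly factors lay between 2.87 and 30.5 TPM. The summed TPM was 881 to 1185 for complex II, 3091 to 3914 for complex III, 5439 to 7018 for complex IV and 7804 to 9610 for complex V across the mice. In each complex the sums overlapped between the B6-mtALR mice of 3 months and B6-mtBPL. They were 996 to 1088 against 1042 to 1185 TPM for complex II, and 5940 to 7018 against 5439 to 6226 TPM for complex IV.

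The level of the members as a whole differed between mice. Relative to the mean of the 11 mice, the median log2 level of the 58 members was 0.12, 0.25, -0.08 and 0.12 in the B6-mtALR mice of 3 months and 0.16, 0.13 and -0.03 in those of 5 months. It was -0.23 and -0.28 in the B6-mtBPL mice of 3 months and -0.04 and -0.13 in those of 4 months. Of the 58 members, 56 lay above their mean in replicate 5 of B6-mtALR, against 1 in each of the B6-mtBPL mice of 3 months. In the other B6-mtALR mice of 3 months 53, 20 and 48 lay above it (replicates 4, 6 and 7), and in those of 5 months 50, 45 and 24. Short and long members did not always stand on the same side. In replicate 6 of B6-mtALR the median was -0.10 for the 52 shorter and 0.27 for the 6 longer members, and in replicate 1 it was 0.16 and -0.13. Replicate 6 of B6-mtALR, with 20 members above their mean, stood with B6-mtBPL replicates 3 and 4 (22 and 7), and its length slope of 0.15 lay between theirs.

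**Figure D4:**
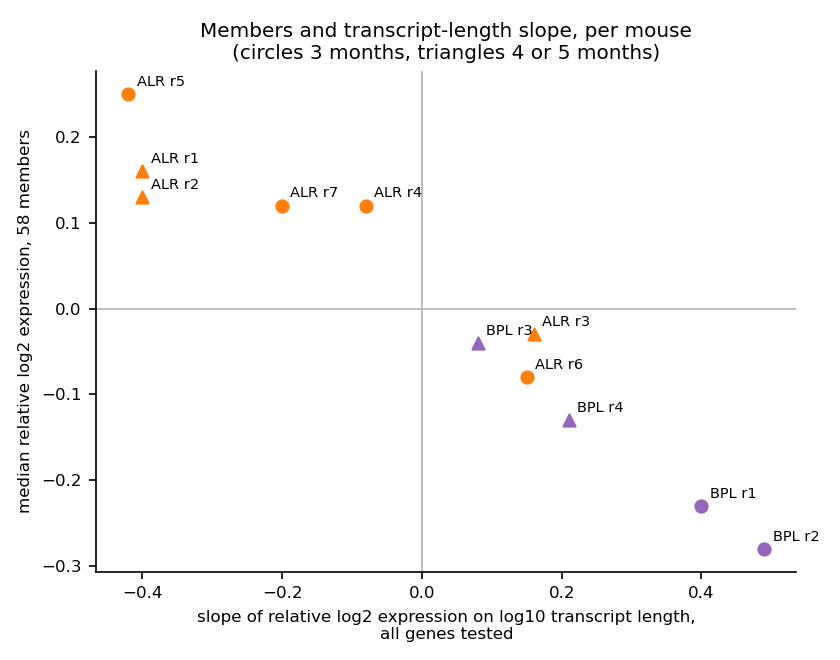
Median relative log2 level of the 58 members (vertical axis) against the slope of relative log2 expression on log10 transcript length over all genes (horizontal axis), 1 point per mouse (orange B6-mtALR, purple B6-mtBPL, r for replicate, circles 3 months, triangles 4 or 5 months). The mice with slopes of -0.40 or below have medians of 0.13 to 0.25, and those with slopes of 0.40 and 0.49 have medians of -0.23 and -0.28.

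Partner genes outside the rule were set beside the members. The mtDNA-encoded subunits of complexes III to V were higher in B6-mtALR mice for *mt-Cytb* (log2 fold change 0.59), *mt-Co3* (0.71) and *mt-Atp6* (0.69), with edgeR adjusted p-values of 0.0409, 0.0302 and 0.048. *mt-Co3* was at 10000, 8640, 8680 and 9320 CPM in B6-mtALR at 3 months, at 6790, 7410 and 6770 CPM at 5 months, and at 5780, 5370, 6300 and 6610 CPM in B6-mtBPL, so that all 7 B6-mtALR mice lay above, those of 5 months narrowly. For *mt-Cytb* (5940, 6620 and 8080 CPM) and *mt-Atp6* (5860, 6490 and 6800 CPM) the B6-mtALR mice of 5 months overlapped with B6-mtBPL. In the edgeR fit of all 11 mice with age, the adjusted p-values of *mt-Cytb*, *mt-Co3* and *mt-Atp6* were 0.164, 0.0796 and 0.11. *mt-Co1*, *mt-Co2* and *mt-Atp8* gave 0.50, 0.55 and 0.77, and the nuclear cytochrome c1 gene *Cyc1* gave 0.27, none of these 4 called by edgeR. Of the 7 partner genes DESeq2 called 6, all but *Cyc1*, and limma-trend 1. Their median was 0.59, and 0.38 after the length correction, with 0 called by edgeR and 3 at an unadjusted p under 0.05. Counts from all mtDNA-encoded genes took 7.43 to 8.93% of the library in B6-mtALR mice of 3 months, 6.15 to 7.26% in those of 5 months and 5.84 to 6.92% in B6-mtBPL mice.

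Of 19 further assembly factors of complexes III to V, *Coa6* (copper delivery to complex IV, 0.61, edgeR adjusted p = 0.0381) and *Tmem70* (ATP synthase assembly, 0.56, edgeR adjusted p = 0.0409) were higher, and the median was 0.26. Of cytochrome c and 4 carriers, *Cycs*, the somatic cytochrome c, was higher (0.76, edgeR adjusted p = 0.0302). After the length correction the edgeR adjusted p-values of *Coa6*, *Tmem70* and *Cycs* were 0.267, 0.152 and 0.146. In the edgeR fit of all 11 mice with age they were 0.0716, 0.083 and 0.083. For *Tmem70* and *Cycs* the B6-mtALR mice of 5 months overlapped with B6-mtBPL. Of 13 other citric acid cycle enzymes edgeR called 0 (4 at an unadjusted p under 0.05), DESeq2 called 2 and limma-trend 0, with a median of 0.15. Of 10 regulators of mitochondrial biogenesis edgeR called 0 (4 at an unadjusted p under 0.05), DESeq2 called 1 and limma-trend 0, with a median of -0.15. The 4 were *Nrf1* at -0.46, *Gabpb1* at -0.38, *Tfam* at 0.32 and *Esrra* at 0.59, while *Gabpa* was at -0.26 and *Yy1* at -0.06. The 46 nuclear complex I genes named Nduf had 7 called and a median of 0.37 (0.08 after the length correction), next to the 9 of 58 and 0.36 (0.07) of complexes II to V. No difference between these lists was tested.

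With age, no member was called in either strain. Between 5 and 3 months in B6-mtALR mice (3 against 4), 0 of 58 members passed in edgeR, DESeq2 or limma, and 2, 2 and 3 had an unadjusted p under 0.05, with 0.793% of all genes called by edgeR and 10.1% at an unadjusted p under 0.05. The median log2 fold change was 0.01, 30 of 58 were above 0, and the smallest adjusted p-value was 0.204, for *Sdhaf1* at -0.56 (SE 0.16). All 3 mice of 5 months lay below all 4 of 3 months for *Sdhaf1*, and the same held for *Sdhaf2*, *Cox7a2* and *Cox7b*, among others. How often this pattern arises over all genes was not counted. The mtDNA-encoded and *Cyc1* partner genes had a median of -0.38, with 0 called by edgeR and 4 at an unadjusted p under 0.05.

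Between 4 and 3 months in B6-mtBPL mice (2 against 2), 0 of 58 members passed in edgeR, DESeq2 or limma, and 6, 2 and 6 had an unadjusted p under 0.05, with 0.117% of all genes called by edgeR and 10.7% at an unadjusted p under 0.05. The median was 0.18 and 53 of 58 were above 0, and after the length correction the median was 0.03. The smallest adjusted p-value was 0.436. The age and strain comparisons share mice, the 4 B6-mtALR mice of 3 months with one and the B6-mtBPL mice with the other, so their values are given side by side only.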

How the data were processed

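The authors sequenced 11 poly-A libraries of liver RNA, 1 for each female mouse, with single-end reads. The authors quantified transcripts with kallisto 0.44.0 on mm10 (per the submitters' processing notes), and the release of the transcripts is not given in the sources used here. The deposited estimated counts are not normalised, and the deposited TPM values are scaled for effective length and library size. TPM values were used to weight transcript lengths and to compare levels between genes, and in no test.

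Of 96626 transcripts, 95301 (98.6%) matched GENCODE M21 (GRCm38) by identifier, with at least 99.64% of the counts of each mouse. Counts were summed per gene and rounded. Groups came from the strain and age fields of the labels, although the extraction protocol there names other strains. The labels give neither a batch nor a date.

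The strains were compared in the 8 mice of 3 to 4 months and the ages within each strain, by the quasi-likelihood F-test (edgeR 4.0.16, R 4.3.3), with genes kept by filterByExpr (minimum count 10, minimum total 15), TMM scaling and p-values adjusted by Benjamini-Hochberg over all genes tested (threshold 0.05). Standard errors were derived from the test statistic. The alternatives were DESeq2 1.42.0, limma-trend 3.58.1, RLE scaling, other filters, other sets of mice, no age term, a replicate block, fits without mtDNA-encoded genes, and corrections of each library for transcript length (lowess, span 0.3) or for length and GC content (loess, span 0.5). The 31-base words shared with other genes were counted in GENCODE transcripts. The edgeR procedure was tested on simulated counts.

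The members and gene lists were chosen with earlier results of these data known. Named are, per complex, the called members, the 3 of highest TPM, and the 2 largest and 2 smallest strain differences, with tissue isoforms, the c-ring genes, partner subunits and called genes of the other lists. Other members that are named were chosen after their values were seen.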

Additional observations from a re-analysis of the deposited data

How the results depend on the processing

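The limits are those of 4 against 2 mice at 3 months, of a strain comparison in which age is only partly shared, and of libraries that differ in their length trend. Of 58 members, edgeR called 9 between the strains, and RLE scaling, limma-trend and a fit without mtDNA-encoded genes also called 9, a filter of 5 counts in 47% of mice 8, and no filter 7 of 62. DESeq2 called 21, and the fit with no age term called 3 with a median of 0.25. The fits of all 11 mice with and without age called 0 each, with medians of 0.27 and 0.29. The length correction called 0 with a median of 0.07, and the length and GC correction called 0 with a median of 0.14. Leaving out 1 mouse at a time gave 0 to 17 called members and medians of 0.30 to 0.40. The 9 called genes were above 0 in each of 21 alternatives, and Usmg5 was called in 11 of them, the others in 6 to 10. The alternatives reuse the mice in which these genes were called, so the shared sign is no separate support.

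With the replicate block over all 11 mice, 0 members were called, 3 had an unadjusted p under 0.05 and the median was 0.23, and with the replicate block and the length correction 0 were called with a median of 0.06. Numbers 5 to 7 exist in B6-mtALR only, so in these fits only numbers 1 to 4 set the strains against each other. Few mice then remain for the error estimate, so the count of 0 called in these fits cannot decide whether members differ. The deviations of mice that share a number correlated at -0.033, -0.139, 0.0668 and -0.0497. Of 4 B6-mtALR mice, 0 correlated best with the B6-mtBPL mouse of the same number. These deviations were taken from means within strain and age, so B6-mtBPL mice of the same age mirror each other. The check therefore cannot decide whether the numbers pair the mice.

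Signs were followed over the alternatives for the members named by rule, not for every member. Some of their differences changed sign, those of genes at up to 0.41 in the strain comparison (Cox8a). Under the length correction these were Sdha (0.02), Sdhc (-0.02), Uqcrc1 (-0.09), Uqcrq (-0.09), Uqcc3 (-0.12), Cox4i1 (-0.02), Cox6a1 (-0.04), Cox7a1 (-0.35), Atp5b (-0.02) and Atp5g2 (-0.09). Under the block with that correction they were Sdhc (-0.06), Uqcrc1 (-0.04), Uqcrq (-0.01), Uqcc3 (-0.04), Cox4i1 (-0.02), Cox6a1 (-0.13), Cox8a (-0.01), Atp5b (-0.03) and Atp5g2 (-0.06), and under length and GC Sdha (0.04), Uqcrc1 (-0.02), Uqcc3 (-0.05) and Cox7a1 (-0.19). Members outside that rule also fell below 0 under the length correction. These included Uqcr10 (-0.02), Uqcc2 (-0.01), Cox6b1 (-0.09), Cox14 (-0.05), Cox17 (-0.11), Cox19 (-0.16) and Cox20 (-0.15). Cox15 was at -0.01 in limma-trend and -0.04 in 11 mice without age. Atp5a1 was at -0.02 with no age term and -0.03 in 11 mice with or without age. Leaving out single mice moved Cox15 between -0.05 and 0.15, Atp5a1 between -0.01 and 0.06, Uqcrc1 between -0.03 and 0.09, and Cox7a1 between -0.08 and 0.27. The cause was not tested. In the age comparisons 0 members were called in every alternative run, and the length correction moved the median of B6-mtBPL mice from 0.18 to 0.03.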
